A study of Solanum lycopersicum with 6 samples.

Results

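The abscisic acid stress ripening (ASR) genes of tomato lie side by side on chromosome 4, and 6 gene models with adjoining identifiers make up the cluster described here. They were taken by identifier, Solyc04g071580.3 to Solyc04g071620.3, out of 35768 genes listed in the deposited table. In the table's descriptions they are ASR2 (Solyc04g071580.3), ASR3 (Solyc04g071590.3), ASR5 (Solyc04g071600.3), ASR1 (Solyc04g071610.3) and ASR4, the last of which has 2 models (Solyc04g071615.1 and Solyc04g071620.3). No member identifier was matched in the RefSeq gene table (assembly SLM_r2.1), but 4 ASR symbols stand there on chromosome 4 in the same order, Asr2, ASR3, ASR1 and Asr4. Between ASR3 and ASR1 that table has 1 protein-coding gene with no ASR symbol, and it has 1 gene, not 2, for ASR4. Protein and promoter sequences of the members were not used here.

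ASR proteins are small, highly hydrophilic plant proteins, disordered in solution, that fold on binding zinc and are found in both cytosol and nucleus. They are classed with the late embryogenesis abundant (LEA) proteins as protectants against water loss and can also bind DNA as transcription factors. The family was first cloned from tomato, is induced by abscisic acid (ABA), drought and fruit ripening, and is absent from Arabidopsis. In rice, a member also named ASR5 is needed for aluminium (Al) tolerance and binds the promoter of STAR1, which encodes part of an ABC transporter required for that tolerance. The shared number does not make the tomato and rice ASR5 genes counterparts.

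RNA was sequenced from the roots of tomato (Solanum lycopersicum) at an age of 20 days, all plants having been given 60 µM Al at pH 4.7. The 2 groups were the slszp1 mutant and wild type, each with 3 libraries that the labels call biological replicates. SZP1 is known as a zinc finger protein that interacts with STOP1, the zinc finger factor behind Al and low-pH tolerance. The mutant allele, the number of mutant lines, the tomato cultivar and the length of the Al treatment are not given in the sources used here. Samples grown without Al were not analysed here, and every difference below is one between genotypes under Al, not a response to Al.

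Levels are in TPM, a transcript abundance scaled by transcript length and by library, so that the levels of different genes can be set side by side. The unit was inferred from the values, whose library sums ran from 940694 to 974316, and the absolute sequencing depth is unknown. Changes are mutant minus wild type on the log2(TPM + 1) scale, from a limma fit over the 17702 genes that reached 1 TPM in 3 or more of the libraries. A gene rose or fell where its limma p, Benjamini-Hochberg adjusted over all of these genes, was under 0.05. The table's descriptions do not name SZP1, so the genotype labels could not be checked against the mutated gene. For root tissue, 22 genes were taken whose descriptions name Casparian strip membrane proteins, the root cap or nitrate transporters. Their levels summed to 249 to 310.2 TPM in mutant libraries and 230.5 to 305 TPM in wild type libraries. Of these genes, 4 were listed at 0 throughout. The 41 genes for chlorophyll a-b binding proteins and the Rubisco small subunit, which mark green shoot tissue, summed to 42.5 to 50.2 TPM and 47.9 to 63.6 TPM, with 11 listed at 0. The 23 genes of seed storage and oil bodies summed to 16.9 to 25.4 TPM and 8.17 to 17.5 TPM, with 7 listed at 0. In whole roots, fewer cells of a type and less RNA per cell cannot be told apart.

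The cluster did not move as a block. Of its 6 gene models, all of which met the expression minimum, 2 fell (ASR2 and ASR3), 3 rose (ASR1 and both models of ASR4) and 1 did not pass (ASR5). The calls of ASR3 and ASR1 were lost when some single libraries were left out, and those of ASR2 and both ASR4 models were not. Across all genes tested, 19.2% changed, 8.71% rising and 10.5% falling. In 5 of the 6 models the mutant and wild type libraries did not overlap, as was the case for 38.5% of all genes tested. The changes ran from a fall of about 175-fold for ASR2 to a rise of about 16.8-fold for one ASR4 model, each as a ratio of mean TPM. These genes are close relatives in sequence and location. The sources used here do not say how reads matching more than one of them were counted, so the level of each single model is uncertain.

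**Figure D1:**
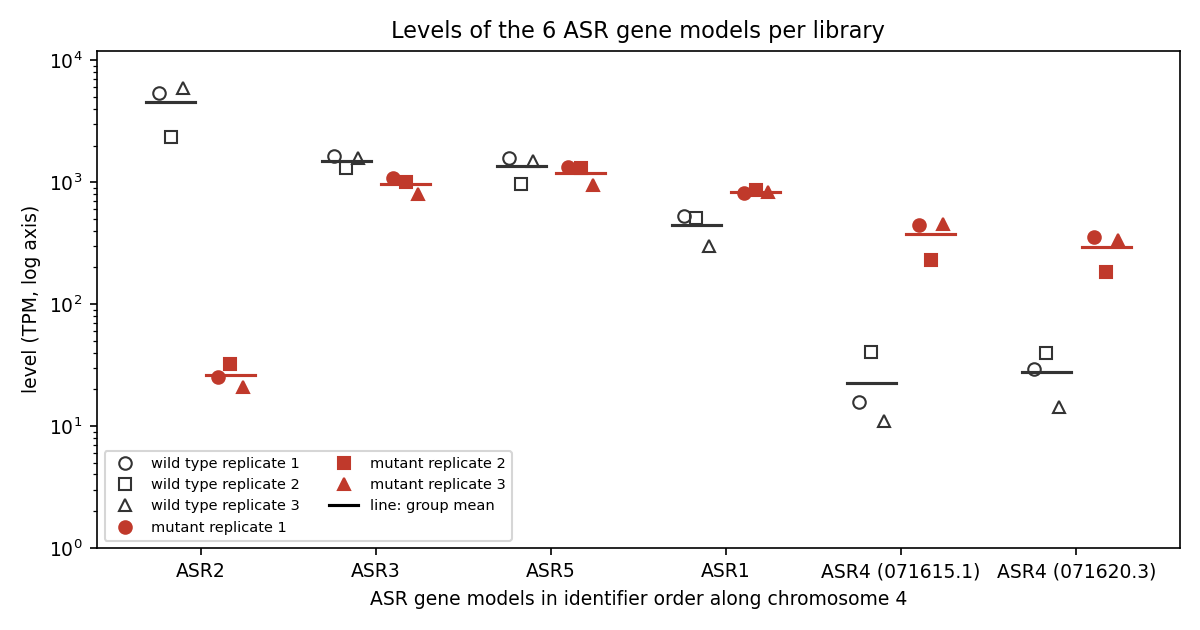
Level in TPM (log axis) of each ASR gene model in each of the 6 libraries, with open dark symbols for wild type, filled red symbols for the slszp1 mutant, symbol shapes for replicates 1 to 3 and a line at each group mean. ASR2 lay at 2366 TPM or more in wild type and at 32.0 TPM or less in the mutant, while both ASR4 models lay higher in the mutant and the ASR5 libraries overlapped.

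ASR2 was the most abundant member in wild type roots and the least abundant in the mutant. It was listed at 5399, 2366 and 5892 TPM in wild type replicates 1, 2 and 3 and at 25.2, 32.0 and 20.9 TPM in mutant replicates 1, 2 and 3. Every wild type library lay far above every mutant library, and within wild type, replicate 2 was the low one. In wild type libraries ASR2 ranked 5th, 28th and 6th of all listed genes by level, and in mutant libraries 5701st, 4802nd and 6966th. Its mean was 4552 ± 1909 TPM (SD, n = 3) in wild type and 26.0 ± 5.59 TPM (SD, n = 3) in the mutant. The change was -7.31 (SE 0.35, 95% interval -8.13 to -6.49), with a limma adjusted p of 3.04e-05. Without wild type replicate 2, the change was -7.73, with a limma adjusted p of 3.84e-06.

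ASR4 went the other way. The model Solyc04g071615.1 held 15.87, 40.45 and 11.02 TPM in wild type replicates 1, 2 and 3 and 445, 231 and 458 TPM in mutant replicates 1, 2 and 3. The second model, Solyc04g071620.3, held 29.4, 39.4 and 14.4 TPM in wild type and 354, 184 and 339 TPM in the mutant, in the same order. In both models each mutant library was above each wild type library, wild type replicate 2 was the highest of its group, and mutant replicate 2 was the lowest of its group. The first model rose by 4.16 (SE 0.50, 95% interval 2.94 to 5.37), with a limma adjusted p of 0.00257. The second rose by 3.40 (SE 0.40, 95% interval 2.44 to 4.36), with a limma adjusted p of 0.00183.

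RefSeq has a single Asr4 in the place of the 2 ASR4 models, and whether these are pieces of 1 gene was not tested. The first model stood at 1.25 to 1.35 times the second in the 3 mutant libraries and at 0.540, 1.03 and 0.763 times the second in wild type replicates 1, 2 and 3. Added together, they held 45.3, 79.9 and 25.5 TPM in wild type and 799, 416 and 797 TPM in the mutant, a ratio of means of 13.4. Fitted as this sum, a choice made after the data were seen, ASR4 rose by 3.80 with a limma adjusted p of 0.00183. TPM is already scaled by transcript length, so if the models are pieces of 1 gene, their sum overstates its level. In that case the sum and shares of the cluster given below also count ASR4 too high.

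ASR1, the founding member of the family, rose by less. Wild type replicates 1, 2 and 3 held 532, 505 and 298 TPM of it, and mutant replicates 1, 2 and 3 held 821, 861 and 835 TPM. The mutant libraries were close to each other and all above wild type, where replicate 3 was the low one. The mean was 839 ± 20.7 TPM (SD, n = 3) against 445 ± 128 TPM (SD, n = 3), and the change was 0.96 (SE 0.23, 95% interval 0.43 to 1.49), with a limma adjusted p of 0.0222. The call was lost without mutant replicate 1, 2 or 3, with limma adjusted p of 0.0617, 0.0652 and 0.067.

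ASR3 fell to about 0.639 of its wild type mean. It held 1638, 1298 and 1585 TPM in wild type replicates 1, 2 and 3 and 1090.3, 1006 and 794 TPM in mutant replicates 1, 2 and 3. The genotypes did not overlap, with a narrow gap between mutant replicate 1 and wild type replicate 2. The change was -0.65 (SE 0.19, 95% interval -1.09 to -0.21), with a limma adjusted p of 0.0465, close to the threshold. The call was lost in 5 of the 6 fits that left out 1 library: limma adjusted p was 0.0744, 0.096 and 0.128 without mutant replicates 1, 2 and 3, and 0.149 and 0.116 without wild type replicates 1 and 3.

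ASR5 was among the most abundant members in both genotypes and did not pass. It stood at 1584, 966 and 1499.5 TPM in wild type replicates 1, 2 and 3 and at 1345, 1313 and 941 TPM in mutant replicates 1, 2 and 3. The groups overlapped, with 1 low library in each, wild type replicate 2 and mutant replicate 3. The change was -0.16 (SE 0.24), with a 95% interval from -0.71 to 0.40 and a limma adjusted p of 0.711. Without mutant replicate 3 it was 0.01, with a limma adjusted p of 0.983.

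The order of the members by level therefore differed between genotypes. In wild type it ran ASR2, ASR3, ASR5, ASR1 and then the 2 ASR4 models. ASR3 and ASR5 overlapped in range there, as did the ASR4 models, while the other neighbours in that order did not. In the mutant it ran ASR5, ASR3, ASR1, Solyc04g071615.1, Solyc04g071620.3 and ASR2. There, ASR5 overlapped in range with ASR3, ASR3 with ASR1, and the ASR4 models with each other, whereas ASR1 lay above both ASR4 models and these above ASR2 in every library.

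**Figure D2:**
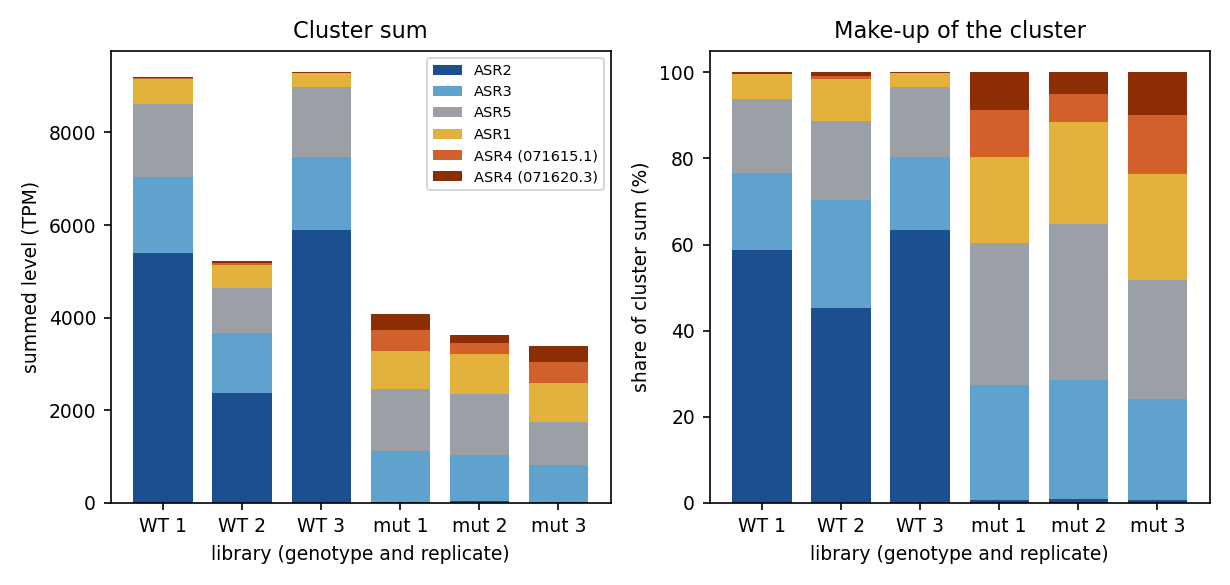
Left, level in TPM of the 6 ASR gene models stacked to the cluster sum in each library (WT, wild type, and mut, slszp1 mutant, replicates 1 to 3). Right, the same as a percentage of the sum, where ASR2 makes up 45.4% or more of every wild type library and under 1% of every mutant library.

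Summed over the 6 models, the cluster held 9199, 5216 and 9300.0 TPM in wild type replicates 1, 2 and 3 and 4081, 3628 and 3387 TPM in mutant replicates 1, 2 and 3. The sum made up 0.955%, 0.540% and 0.955% of all listed values in wild type and 0.434%, 0.378% and 0.360% in the mutant. Its mean was 7905 ± 2329 TPM (SD, n = 3) in wild type and 3699 ± 352 TPM (SD, n = 3) in the mutant, a ratio of 0.468, for which no test was made. With Solyc04g071615.1 left out of the sum, the ratio was 0.421. Without ASR2 the sums overlapped, at 3799.9, 2850.1 and 3408 TPM in wild type and 4055, 3596 and 3367 TPM in the mutant. Between the group means, ASR2 fell by 4526 TPM and ASR3 fell by 544 TPM. ASR5, which did not pass, was lower by 150 TPM. ASR1 was higher by 394 TPM and the ASR4 models by 356 and 265 TPM. In TPM, the rises of ASR1 and the ASR4 models were together smaller than the fall of ASR2. Whether these rises and that fall are linked was not tested.

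The make-up of the cluster is given by each member's share of the sum in the same library. The shares of a library add up to 100%. Where the ASR2 share is lower, the other shares together must be higher, even at unchanged levels. The shares and their tests are therefore not independent of each other. ASR2 took 58.7%, 45.4% and 63.4% of the sum in wild type replicates 1, 2 and 3 and 0.617%, 0.882% and 0.617% in mutant replicates 1, 2 and 3. ASR5, whose level did not pass, took 17.2%, 18.5% and 16.1% in wild type and 33.0%, 36.2% and 27.8% in the mutant. The shares of ASR1 were 5.79%, 9.69% and 3.21% against 20.1%, 23.7% and 24.6%. For ASR2, ASR5 and ASR1 the libraries of the genotypes did not overlap, and neither did they for the ASR4 models, which took 0.118% to 0.776% each in wild type and 5.08% to 13.5% in the mutant. An exact two-sided permutation test of each share gave p = 0.1 for these 5 models, the smallest p that 3 against 3 libraries allow, and 0.12 after Benjamini-Hochberg adjustment over the 6 models. ASR3 took 17.8%, 24.9% and 17.04% in wild type and 26.7%, 27.7% and 23.4% in the mutant. These shares overlapped (exact permutation p = 0.2, adjusted 0.2), and their mean was higher in the mutant although the level of ASR3 was lower.

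Wild type replicate 2 was the wild type library nearest to the mutant mean on the log2 scale in 5 of the 6 models, the exception being ASR1. It held the lowest wild type level of ASR2, ASR3 and ASR5 and the highest of both ASR4 models. Among the 5 members that changed, wild type replicate 2 was nearest to the mutant mean in 4. Of all 3407 changed genes, the same library was nearest to the mutant in 46.1%, against 25.8% and 28.1% for wild type replicates 1 and 3. Mutant replicate 2 was the mutant library nearest to the wild type mean in 4 models, ASR2, ASR5 and both models of ASR4. This held for 3 of the 5 members that changed and for 33.7% of all changed genes. Mutant replicates 1 and 3 were nearest in 39.9% and 26.4% of all changed genes.

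**Figure D3:**
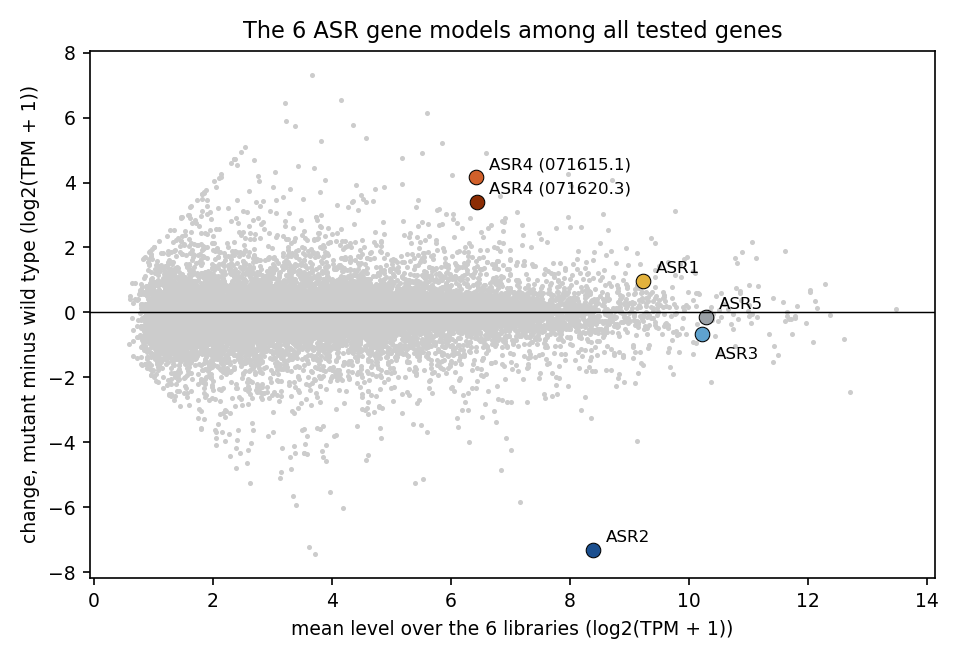
Change, mutant minus wild type, against the mean level over the 6 libraries, both on the log2(TPM + 1) scale, for all 17702 tested genes (grey) with the 6 ASR gene models named. ASR2 stands at the lower edge with a change of -7.31, the ASR4 models lie at 4.16 and 3.40, and ASR1, ASR5 and ASR3 lie near the centre line at high mean levels.

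Genes next to the cluster were read in identifier order, 5 on each side. Of these 10 genes 6 were tested and 2 changed, beside 19.2% changed over all genes tested. Directly beside ASR2, the gene for a SET domain protein (Solyc04g071570.3), a domain found in enzymes that methylate histones, held 21.2, 16.0 and 23.8 TPM in wild type replicates 1, 2 and 3 and 3.63, 3.22 and 3.68 TPM in the mutant. It fell by 2.23 on the log2 scale (SE 0.19), with a limma adjusted p of 0.000178. Further out, a gene of the sphingomyelin synthetase family (Solyc04g071560.3) rose, from 0.65, 0.41 and 0.83 TPM to 4.96, 4.07 and 5.40 TPM, a change of 1.84 (SE 0.21) with a limma adjusted p of 0.000766. Between these, the thioredoxin family gene Solyc04g071565.1 did not pass (-0.42, SE 0.18, limma adjusted p = 0.148), nor did the sterol glucosyltransferase gene Solyc04g071540.3 (0.70, SE 0.27, limma adjusted p = 0.106).

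Beyond ASR4, neither of the tested neighbours passed. Solyc04g071630.3, whose description names a chloroplast acetyl-CoA carboxylase subunit, held 7.67 to 7.74 TPM across the mutant libraries and 8.33 to 10.7 TPM across wild type, and its change was -0.22 (SE 0.17, limma adjusted p = 0.405). The cellulose synthase gene Solyc04g071650.3 held 3.33 to 7.88 TPM and 6.05 to 7.52 TPM, with a change of -0.19 (SE 0.28, limma adjusted p = 0.685). The remaining 4 neighbours were below the expression minimum. Among them Solyc04g071670.1, a low-quality FERONIA-like model, was listed at 9.27 TPM in mutant replicate 2 and at 0 in the other 5 libraries.

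**Figure D4:**
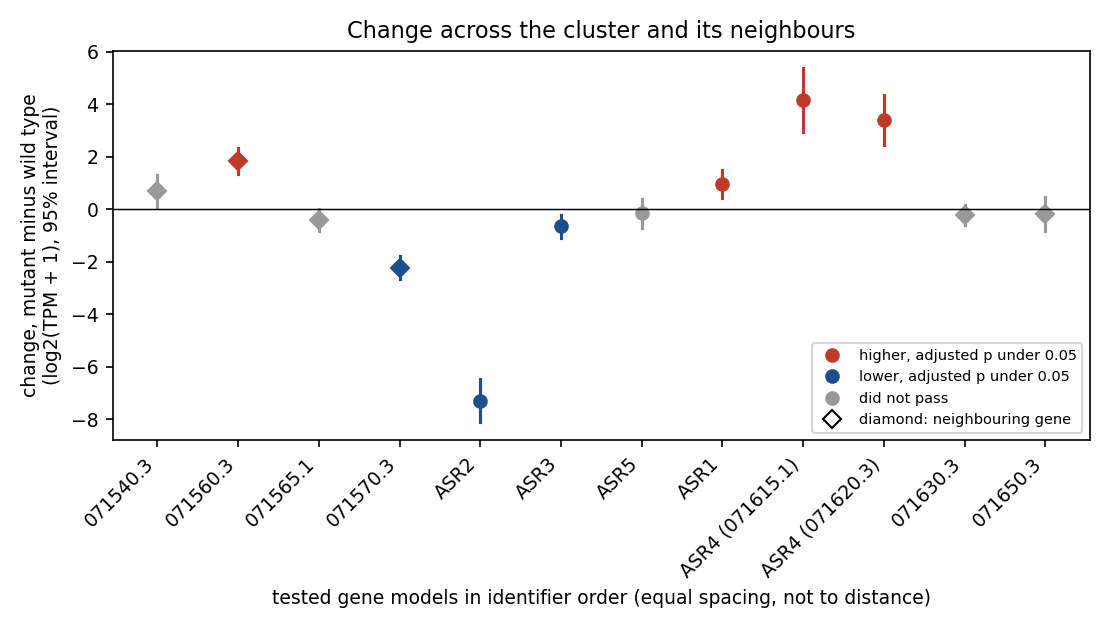
Change, mutant minus wild type, on the log2(TPM + 1) scale with its 95% interval, for the tested ASR gene models (circles) and tested neighbours (diamonds) in identifier order, evenly spaced and not to distance. From left to right the members run from ASR2 at -7.31 through ASR5 at -0.16 to the ASR4 models at 4.16 and 3.40, and the SET domain gene beside ASR2 lies at -2.23.

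For each member that passed, the 3 tested genes outside the cluster most alike in profile were sought by the root mean square difference of centred log2(TPM + 1) values over the 6 libraries. Most like ASR2 were the serine-rich protein gene Solyc07g007330.1 (difference 0.44), the FER gene Solyc06g051550.3 (0.76) and SAUR38, Solyc03g097510.1 (0.78). The serine-rich protein gene was listed at 0 in every mutant library and at 168 to 175 TPM in wild type, without the low replicate 2 of ASR2. Its nearness depends on the 1 added to each value. On the log2(TPM + 0.1) scale it changed by -10.7, ASR2 by -7.36 and FER by -7.56. FER encodes the bHLH factor needed for iron uptake in tomato roots and was at 0.52, 0.12 and 0.48 TPM in mutant replicates 1, 2 and 3 against 101.7, 49.3 and 106.5 TPM in wild type. SAUR38, a small auxin up-regulated RNA gene, held 0.60 to 2.74 TPM across the mutant and 110.1 to 174 TPM across the wild type libraries. No other member was near ASR2, the closest being ASR3 with a difference of 3.35.

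Both ASR4 models had as a near profile the low-quality model Solyc11g027640.1, described as a phosphatidylinositol 4-OH kinase, at differences of 0.46 and 0.25, with 308 to 499.8 TPM across the mutant and 22.1 to 42.0 TPM across the wild type libraries. The SWEET sugar transporter gene Solyc03g097610.3 (0.43) and the beta-galactosidase 3 gene Solyc03g121540.3 (0.47) were the others for Solyc04g071615.1. Beta-galactosidases trim galactose from cell wall polymers, and this gene held 873 to 1686 TPM in mutant libraries and 36.6 to 90.5 TPM in wild type libraries. For Solyc04g071620.3 the others were a fasciclin-like arabinogalactan protein gene, Solyc12g006110.2 (0.32), and a peroxidase gene, Solyc07g052530.3 (0.34). The ASR4 models differed from each other by 0.46, which for Solyc04g071615.1 lay among the differences to its 3 nearest genes and for Solyc04g071620.3 above all 3.

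ASR3 and ASR1, whose changes were smaller, had matches at smaller differences. Nearest to ASR3 were genes for a fructose-1,6-bisphosphate aldolase of glycolysis (Solyc09g009260.3, difference 0.051), a 4-hydroxy-4-methyl-2-oxoglutarate aldolase (Solyc04g008280.2, 0.053) and a disulfide isomerase-like protein (Solyc06g065320.3, 0.054). The aldolase Solyc09g009260.3 held 101.1 to 127 TPM in mutant libraries and 167 to 197 TPM in wild type libraries. The calls of the genes nearest to ASR3 were lost in 4, 9 and 4 of 12 alternatives, in the order named. Nearest to ASR1 were genes at much lower levels, Solyc09g091100.3 (0.069), Solyc02g069770.3 (0.077) and the cinnamoyl-CoA reductase gene Solyc02g086770.3 (0.090). The last held 7.62 to 8.15 TPM in mutant libraries and 2.70 to 4.86 TPM in wild type libraries. At low levels the 1 added to each value shrinks log2 differences. Solyc09g091100.3, at 0.27 to 2.41 TPM, had a ratio of means of 2.93, against 1.88 for ASR1. For the genes nearest to ASR1, calls were lost in 7, 8 and 5 of 12 alternatives, in the order named. By this measure the member nearest to both ASR3 and ASR1 was ASR5, at 0.28 and 0.71.

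Among genes of the ABA pathway the changes were mixed. Of 18 tested genes in the list for ABA synthesis and breakdown, 5 rose and 2 fell (38.9% changed, median change 0.48, against 19.2% and -0.0005 over all genes tested). The list takes in all aldehyde oxidases and molybdenum cofactor sulfurases, of which only some act on ABA. An aldehyde oxidase gene, Solyc11g071600.2, stood at 48.5 ± 13.7 TPM in mutant libraries against 12.5 ± 3.45 TPM (SD, n = 3) and rose by 1.88 (SE 0.26, limma adjusted p = 0.00183). A low-quality molybdenum cofactor sulfurase model, Solyc03g031420.1, had 20.4 ± 1.39 against 6.28 ± 0.46 TPM and rose by 1.55 (SE 0.16, limma adjusted p = 0.000395). Solyc04g077230.1, described as an indole-3-acetaldehyde oxidase, a name that points to auxin and not ABA, fell from 528 ± 52.7 to 209 ± 51.3 TPM (limma adjusted p = 0.00242). Without wild type replicate 2, 3 genes of the list rose and 3 fell, and 3 rose and 2 fell when mutant replicate 3 or either of wild type replicates 1 and 3 was left out.

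In the list for ABA perception and signalling, 2 of 14 tested genes rose and 1 fell. This was 21.4% changed, near the 19.2% over all genes tested, with a median change of 0.21 against -0.0005. The ABA receptor genes Solyc10g076410.1, with 52.2 ± 8.22 against 24.1 ± 4.94 TPM, and Solyc03g095780.2, with 314 ± 96.1 against 120 ± 20.2 TPM, rose, with limma adjusted p of 0.0048 and 0.0049. The receptor gene described as PYL1, Solyc08g076960.1, fell from 107 ± 15.4 to 71.1 ± 8.76 TPM (limma adjusted p = 0.0398). That call was lost without mutant replicate 1 or 2 or wild type replicate 1 or 3, with limma adjusted p of 0.113 to 0.139. Without wild type replicate 2, 3 genes of the list fell and 2 rose.

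The list for dehydrins and other LEA proteins, the class with which ASR proteins are grouped, held changes in both directions. It also takes in genes for HVA22-like proteins, ABA-induced membrane proteins that are not LEA proteins. Of 62 tested genes 7 rose and 15 fell (35.5% changed, median change -0.19, against 19.2% and -0.0005 over all genes tested). A dehydrin gene, Solyc02g062390.3, held 8.13, 5.69 and 8.57 TPM in mutant replicates 1, 2 and 3 and 60.0, 57.5 and 82.7 TPM in wild type. It fell by 2.999 on the log2 scale (SE 0.21, limma adjusted p = 6.05e-05). An HVA22-like gene, Solyc11g010930.2, fell from 19.3 ± 0.68 to 2.53 ± 0.382 TPM (limma adjusted p = 5.65e-05). The LEA5 gene Solyc09g075210.3 rose from 1009.9 ± 175 to 3638 ± 660 TPM (limma adjusted p = 0.000741). Without mutant replicate 2, 4 genes of this list rose and 13 fell.

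The last lists were drawn from roles known for ASR proteins in other plants, the control of STAR1 in rice and of a hexose transporter in grape. STAR1 was among the terms of the aluminium transport list, but no gene description matched it. The list held 1 gene, ALS3 (Solyc10g085950.2), whose Arabidopsis counterpart is an ABC transporter subunit needed for Al tolerance. Its levels were 92.0, 38.7 and 99.9 TPM in wild type replicates 1, 2 and 3 and 0.70, 0.23 and 0.42 TPM in the mutant. The change was -5.65 (SE 0.35, limma adjusted p = 5.72e-05). As for ASR2, all wild type libraries lay above all mutant libraries and wild type replicate 2 was the lowest of its group. Both traits were common. The genotypes did not overlap, in either direction, in 38.5% of all genes tested. Wild type replicate 2 was nearest to the mutant mean in 46.1% of all changed genes. Of 6 tested genes for hexose transport 3 rose and 1 fell (66.7% changed, median change 0.64, against 19.2% and -0.0005 over all genes tested). This list was taken by description and includes tonoplast and polyol monosaccharide transporters. The tonoplast monosaccharide transporter 1 gene, Solyc03g032040.3, which moves sugars into the vacuole, rose from 4.19 ± 2.68 to 36.7 ± 11.4 TPM (limma adjusted p = 0.00162), and Solyc04g082700.3, described as tonoplast monosaccharide transporter 2, from 14.4 ± 1.63 to 24.3 ± 4.08 TPM (limma adjusted p = 0.0217). Polyol monosaccharide transporter 4, Solyc01g109460.3, fell from 224 ± 18.6 to 129 ± 11.7 TPM (limma adjusted p = 0.00678). When mutant replicate 3 or wild type replicate 1 was left out, 1 hexose transport gene rose and 1 fell, and the call of Solyc04g082700.3 was lost (limma adjusted p of 0.0569 and 0.0807). A list for ASR genes elsewhere held 1 gene, an unrelated trihelix factor also called ASR3 in Arabidopsis, which was not tested.

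**Figure D5:**
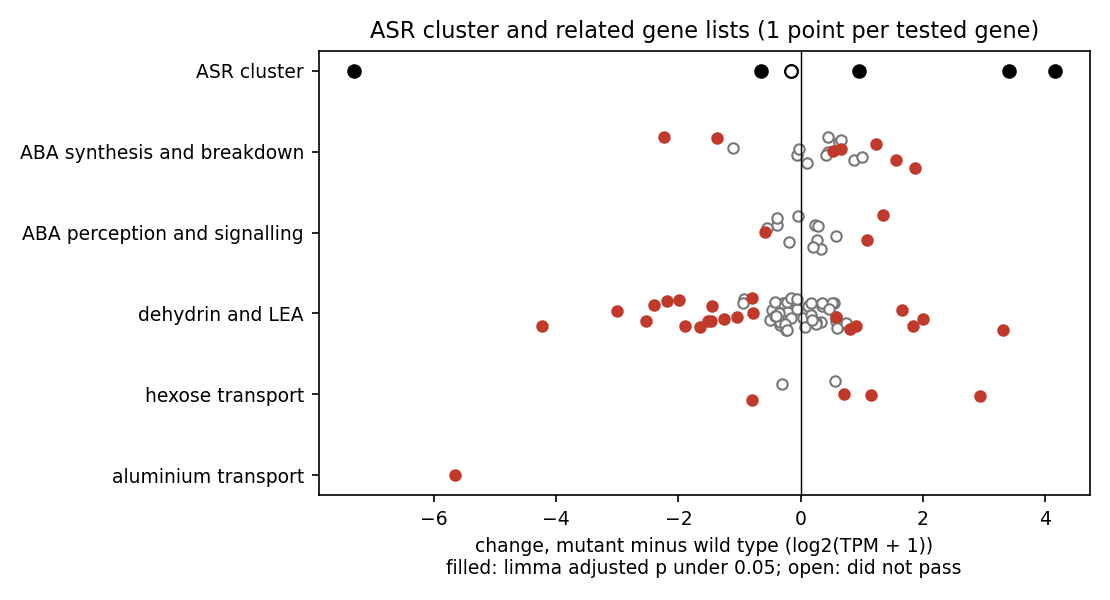
Change, mutant minus wild type, on the log2(TPM + 1) scale for each tested gene of the ASR cluster and of 5 related gene lists, with filled points for genes that passed a limma adjusted p of 0.05 and open points for those that did not. The ASR cluster spans -7.31 to 4.16, the ABA synthesis and the dehydrin and LEA lists hold filled points on both sides of 0, and the 1 aluminium transport gene lies at -5.65.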

How the data were processed

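Root RNA-seq of 3 slszp1 mutant and 3 wild type libraries, grouped by the labels, was taken from 1 table of the authors with 6 value columns. The header names no unit, and the deposited values were taken as TPM from their library sums. Per the submitters' processing notes, the tools were Cufflinks, StringTie, HISAT2 and TopHat2, with no role or version. The genome build and the handling of reads shared between genes are not given in the sources used here. Depth is unknown, so no interval from counts was possible.

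The 17702 genes that reached 1 TPM in 3 or more of the 6 libraries were tested as log2(TPM + 1) with limma 3.58.1 (trend and robust options, statmod 1.5.0) in R 4.3.3, mutant against wild type, with Benjamini-Hochberg adjustment. Shares were tested with exact permutations in scipy 1.17.1. The fit was tested on simulated data. The design allowed for counts or normalized values, and the test for the latter was used.

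The members and lists were chosen with earlier results of these data known. Named were all members, 5 neighbours on each side, the 3 most alike genes per changed member, and up to 3 changed genes per list. The alternatives were a pseudocount of 0.1, no filter, quantile normalization, a replicate block, limma without its options, each library left out, a sum without 1 model and, added after the data were seen, median centring and summed ASR4 models. The limma p-values set the difference between groups against the spread between these libraries, with variances moderated over all genes tested. The number of mutant lines is not given, so spread between lines may not be covered.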

Additional observations from a re-analysis of the deposited data

How the results depend on the processing

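The changes of ASR2 and both ASR4 models kept their direction and passed limma in every alternative run, from -7.73 to -7.07 for ASR2, 3.78 to 4.67 for Solyc04g071615.1 and 3.01 to 3.80 for Solyc04g071620.3. The fall of ASR3 was lost in 8 of 12 alternatives, among them no filter (-0.65, limma adjusted p = 0.064), median centring (-0.65, 0.0947) and the replicate block (-0.65, 0.0788), and ran from -0.75 to -0.52 without single libraries (limma adjusted p of 0.0276 to 0.149 over all alternatives). The change of ASR1 ran from 0.69 to 1.11 without single libraries (limma adjusted p of 0.0191 to 0.067 over all alternatives). That of ASR5 ran from -0.38 to 0.01 and turned positive without mutant replicate 3, at 0.0108. The cluster sum ratio ran from 0.400 to 0.513 and no share difference changed sign. Without single libraries, 2125 to 3806 genes changed, 994 to 1764 rising and 1131 to 2042 falling. Without single libraries, 5 to 6 genes changed for ABA synthesis, 2 to 5 for ABA perception, 17 to 24 for dehydrins and LEA, and 2 to 3 for hexose transport. Over all alternatives the ABA synthesis list reached 10 (7 in the report) and hexose transport 4. Among 33 named genes outside the cluster, 22 kept their call and direction throughout, 8 lost a call, 2 gained one, and the cellulose synthase gene Solyc04g071650.3 ran from -0.39 without mutant replicate 3 to 0.13 without mutant replicate 2. The causes were not tested. Deviations of same-numbered libraries from their group means had correlations of -0.0481, -0.0738 and 0.108. With 3 libraries per group these values depend on each other and cannot settle whether the numbers pair the libraries. The labels name no pairing, and with the replicate block 2775 genes changed against 3407. Unknown depth and reads shared among ASR paralogues limit the value of any single model.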
